A study of Mus musculus with 12 samples.

Results

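The genes described here encode the machinery that ubiquitinates misfolded proteins of the endoplasmic reticulum (ER) and pulls them out of the ER membrane: Vcp, Ufd1, Nploc4, Ubxn4, Selenos, Ube2j1 and Ube2g2. These 7 genes, chosen by name, are 7 of the 18193 genes that the arrays represent, and 15 probe sets report them. Every probe set annotated to exactly 1 of these genes was taken, and the one with the highest mean over the 12 arrays gave the value of its gene. Livers of 12 mice were measured on Affymetrix whole-genome arrays, 1 array per animal, with 3 separate mice in each of 4 groups. These were Atf6a-/- mice given tunicamycin (TM), Atf6a-/- mice given vehicle, wild-type (+/+) mice given TM, and wild-type mice given vehicle. TM, an inhibitor of N-linked glycosylation that causes proteins to misfold in the ER, was injected intraperitoneally at 1 mg/kg in 150 mM dextrose, and dextrose alone was the vehicle. Livers were taken 34 h after the injection from fasted animals of varying age and either sex, which the labels do not give per animal. The source field of the labels gives 8 h, while the titles and protocol give 34 h, which is used here. ATF6a is an ER membrane protein that is cleaved under ER stress and whose released fragment activates transcription. Which part of the gene the Atf6a-/- mice lack is not stated in the sources used here, and the genotype applies to the whole animal as labelled.

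During ER-associated degradation (ERAD), a misfolded protein is moved back through the ER membrane, tagged with ubiquitin by a conjugating enzyme (E2) and a ligase (E3), and handed to the proteasome. The AAA ATPase VCP supplies the pulling force, and the UFD1-NPLOC4 heterodimer is the adaptor that binds the ubiquitin chains. UBXN4 (erasin) and the selenoprotein SELENOS (VIMP) are ER membrane proteins that bind VCP there, UBE2J1 is an E2 anchored in the ER membrane, and UBE2G2 is a soluble E2 that is recruited to it. Hepatocytes secrete large amounts of glycoprotein, and several ERAD genes are known to be induced when unfolded proteins accumulate in the ER.

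Promoter windows of RefSeq (GRCm38.p6, 250 bases before to 50 after a start) were found for 6 of the 7 genes, all but Ube2g2, and were searched on both strands for 5 motifs. The bases before the start are shown for the genes with a match, since these are the letters that stress-responsive transcription factors of the ER are known to read, and for Ufd1, which had the lowest adjusted p of the 7 for a difference in response between genotypes and no match. Capitals mark the matches, and positions count back from the start (-1 is the base before it).
Selenos: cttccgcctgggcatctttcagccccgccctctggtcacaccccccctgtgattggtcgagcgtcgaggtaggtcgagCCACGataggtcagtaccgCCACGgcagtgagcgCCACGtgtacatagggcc
Ube2j1: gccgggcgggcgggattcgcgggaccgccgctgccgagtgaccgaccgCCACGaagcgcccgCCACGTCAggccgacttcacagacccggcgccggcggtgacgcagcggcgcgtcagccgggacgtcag
Vcp: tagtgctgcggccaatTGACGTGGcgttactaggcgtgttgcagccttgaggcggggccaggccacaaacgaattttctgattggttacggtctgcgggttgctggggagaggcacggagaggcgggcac
Ufd1: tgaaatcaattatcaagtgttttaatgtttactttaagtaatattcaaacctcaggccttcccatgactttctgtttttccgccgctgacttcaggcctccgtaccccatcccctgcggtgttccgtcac
The stretches lie at chr7:66079519-66079648, plus strand (Selenos), chr4:33031250-33031379, plus strand (Ube2j1), chr4:43000508-43000637, minus strand (Vcp) and chr16:18812164-18812293, plus strand (Ufd1), each from -130 to -1. The stretch of Ufd1 falls inside the annotated gene, whose first base is at 18811736, because the start used by the promoter table lies downstream of it. The same holds for the Ubxn4 window, whose start lies downstream of the gene's first base at 128243898, so that these windows lie wholly (Ufd1) or mostly (Ubxn4) inside the annotated genes. The unfolded protein response element TGACGTGG, a known site of ATF6 and XBP1, stood at -114 of Vcp on the plus strand of the gene and at -68 of Ube2j1 on the minus strand, and 0.676% of all 32851 windows held it. The 5 letters CCACG, which are part of that element on its other strand, occurred 3 times in the Selenos window, at -52, -33 and -18, at -82 and -68 of Ube2j1 and at -111 of Vcp, with 32.8% of all windows holding them. The ER stress response element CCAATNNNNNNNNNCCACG (0.119% of windows), its variant ERSE-II, ATTGG and CCACG with 1 base between (0.0365%), and the ATF4 and CHOP element TTGCATCA (0.895%) had no match in the 6 windows. CCACG also ends the first 2 of these.

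All values are log2 levels as the authors normalized them, and differences are TM minus vehicle or Atf6a-/- minus wild-type on that scale. A gene was called higher or lower where its adjusted p in limma was under 0.05 and its difference over 1.5-fold. The arrays carried the stress response: Hspa5, the ER chaperone BiP, was higher after TM by 2.15 in Atf6a-/- livers and by 1.95 in wild-type livers (adjusted p = 1.23e-06 and 3.89e-05). The level of Atf6 itself was 6.88, 6.85 and 6.60 in Atf6a-/- vehicle livers, against 8.54, 8.42 and 8.49 in wild-type vehicle livers. After TM it was 9.60, 9.81 and 9.23 in Atf6a-/- livers and 9.30, 9.72 and 9.49 in wild-type livers, so that the probe set separates the genotypes after vehicle and not after TM. As the deleted part is not given, this probe set does not check the genotype labels of the TM livers. Along the first principal component of the arrays, the 3 Atf6a-/- TM livers lay between 113.6 and 119.9, wild-type TM animals 1 and 3 at -12.9 and -11.9, wild-type TM animal 2 at 29.5, and the 6 vehicle livers between -61.5 and -55.8. Wild-type TM animal 2 therefore stood apart from its group, and results that rest on it are given with and without it. Xist, which female cells express, was at 12.29 in Atf6a-/- TM animal 1, at 12.39 in Atf6a-/- vehicle animal 1 and at 12.19 in wild-type vehicle animal 1, and at 5.37 to 6.68 in the other 9 livers, so that none of the wild-type TM livers had the high level. With the Xist level as a covariate the counts of called genes among the 7 were the same in each comparison.

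Most of the 7 genes were more abundant after TM, with more calls in livers that lack ATF6a. In Atf6a-/- livers 5 of the 7 were called higher (Ufd1, Ubxn4, Ube2j1, Ube2g2 and Selenos) and 0 lower, with a median difference of 1.53, where 15.2% of all genes were called higher and 12.8% lower. In wild-type livers 3 were called higher (Ubxn4, Ube2j1 and Selenos) and 0 lower, with a median of 0.69, against 3.45% of all genes higher and 3.86% lower. The 3 Atf6a-/- TM values lay above the 3 vehicle values in 7 of 7 genes, as in 24.1% of all genes, and in wild-type livers in 5 of 7, as in 11.8% of all genes. Between the genotypes after TM, Ufd1, Ubxn4 and Ube2g2 were called higher in Atf6a-/- livers and 0 of the 7 were called lower, with 11.3% of all genes called higher and 8.45% lower. The Atf6a-/- TM livers lay above the wild-type TM livers without overlap in 4 of 7 genes, those 3 and Nploc4, as in 19.5% of all genes. These comparisons share their arrays and are not independent of each other. The shares are over all 18193 genes with no filter on level, dim ones included. The 7 genes had group means of 8.34 and above by their main probe sets. Shares among genes of like level are not given here. In liver homogenate, a change in the share of a cell type and a change in RNA per cell cannot be told apart. Without wild-type TM animal 2 the wild-type count was 2 (Ubxn4 and Selenos), the Atf6a-/- count stayed at 5, and 4 genes were called higher in Atf6a-/- livers after TM, Ube2j1 being the added one.

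**Figure D1:**
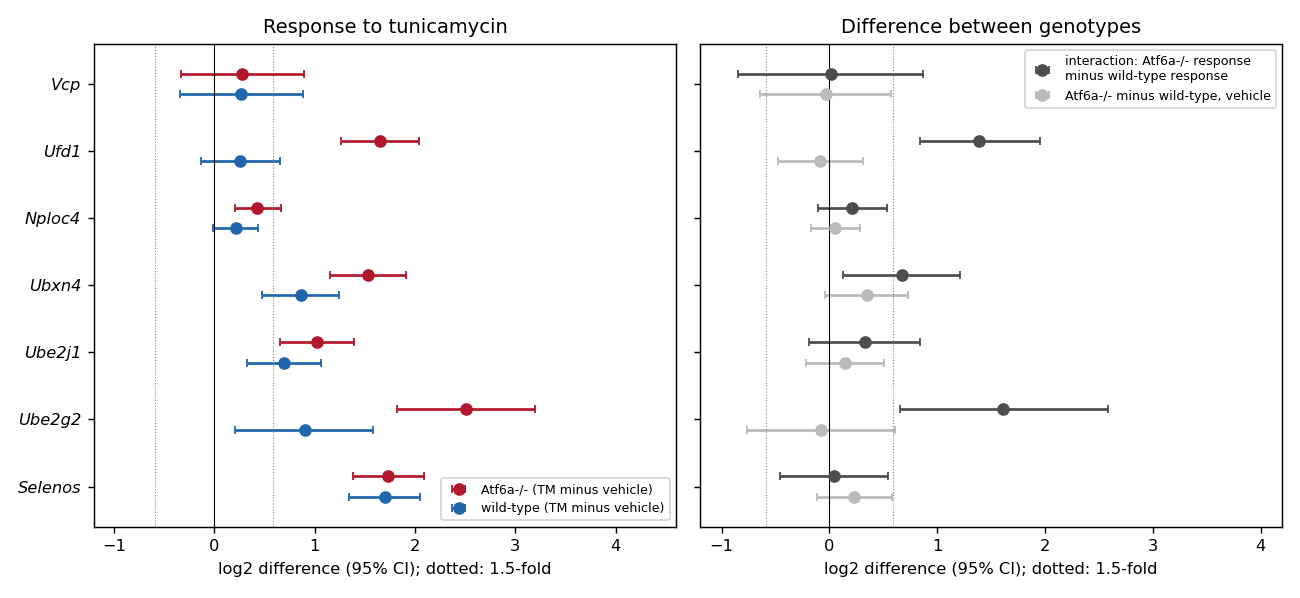
Log2 differences of the 7 genes with 95% confidence intervals from the limma model. The left panel gives TM minus vehicle in Atf6a-/- livers (red) and wild-type livers (blue). The right panel gives the Atf6a-/- response minus the wild-type response (dark grey) and the Atf6a-/- minus wild-type difference after vehicle (light grey), with 1.5-fold as dotted lines. Ufd1 and Ube2g2 have the widest gaps between genotypes, at 1.39 and 1.61, while those of Vcp and Selenos lie at 0.01 and 0.04.

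Of the ATPase and its adaptor pair, only Ufd1 was called by its main probe set on the values as deposited. With the arrays scaled on spike-ins, Vcp and Nploc4 were called too in Atf6a-/- livers (0.77 and 0.92, adjusted p = 0.0318 and 2.72e-04), and on Btf3 and Ppia they came to -0.24 and -0.08. Vcp, the ATPase, had levels of 11.87, 12.13 and 12.05 in Atf6a-/- TM livers, against 11.82, 11.85 and 11.53 in Atf6a-/- vehicle livers. In wild-type livers it had 11.54, 12.89 and 11.69 after TM, against 11.54, 11.86 and 11.91 after vehicle. The nearest animals of the Atf6a-/- groups were at 11.87 after TM and 11.85 after vehicle, and in wild-type livers animals 1 and 3 lay within the vehicle range or at its edge while animal 2 lay above every other liver of the study. The difference was 0.28 ± 0.28 (SE) in Atf6a-/- livers (95% interval -0.33 to 0.89, adjusted p = 0.535) and 0.27 ± 0.28 in wild-type livers (-0.34 to 0.88, adjusted p = 0.704). The fit shares 1 estimate of the spread over the 4 groups. The SDs of Vcp were 0.13 and 0.17 in the Atf6a-/- TM and vehicle groups. They were 0.74 and 0.20 in the wild-type TM and vehicle groups. The SE therefore does not show how far the Atf6a-/- livers themselves scatter. Without wild-type TM animal 2 the wild-type difference was -0.15 (adjusted p = 0.717), and the Atf6a-/- minus wild-type difference after TM was 0.40 (adjusted p = 0.0807), against -0.03 with it.

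Ufd1, which binds ubiquitin chains for VCP, was higher after TM in Atf6a-/- livers. Its levels were 9.80, 10.19 and 10.10 in Atf6a-/- TM livers and 8.48, 8.49 and 8.17 in Atf6a-/- vehicle livers. In wild-type livers they were 8.53, 9.16 and 8.47 after TM and 8.32, 8.56 and 8.51 after vehicle. The Atf6a-/- TM livers lay above the other 9 livers without overlap, and 2 of the 3 wild-type TM livers lay within the range of the wild-type vehicle livers. Ufd1 was 3.14-fold higher after TM in Atf6a-/- livers (1.65 ± 0.18, adjusted p = 2.09e-05), whereas in wild-type livers the difference was 0.26 ± 0.18 (-0.13 to 0.65, adjusted p = 0.525) and, without wild-type TM animal 2, 0.04 (adjusted p = 0.952). After TM it was 2.47-fold higher in Atf6a-/- than in wild-type livers (1.31 ± 0.18, adjusted p = 2.90e-04).

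Nploc4, the partner of UFD1, differed less. It had 8.98, 9.26 and 9.23 in Atf6a-/- TM livers, against 8.58, 8.77 and 8.82 in Atf6a-/- vehicle livers. In wild-type livers it had 8.90, 8.86 and 8.91 after TM, against 8.56, 8.75 and 8.71 after vehicle. Both TM groups lay above their vehicle groups without overlap, by small margins. The difference of 0.43 ± 0.10 in Atf6a-/- livers had an adjusted p of 0.00706 but came to 1.35-fold, under the fold of a call, and that of 0.22 ± 0.10 in wild-type livers (-0.01 to 0.44) had an adjusted p of 0.298. Between the genotypes after TM it was 0.26 ± 0.10 (adjusted p = 0.109). With the arrays scaled on Btf3 and Ppia, that between genotypes was -0.17. In Atf6a-/- livers the 95% intervals by the main probe sets were 1.26 to 2.04 for Ufd1 and 0.21 to 0.66 for Nploc4. By the second Ufd1 probe set (1418087_at) the interval was 0.55 to 1.32, which overlaps that of Nploc4.

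**Figure D2:**
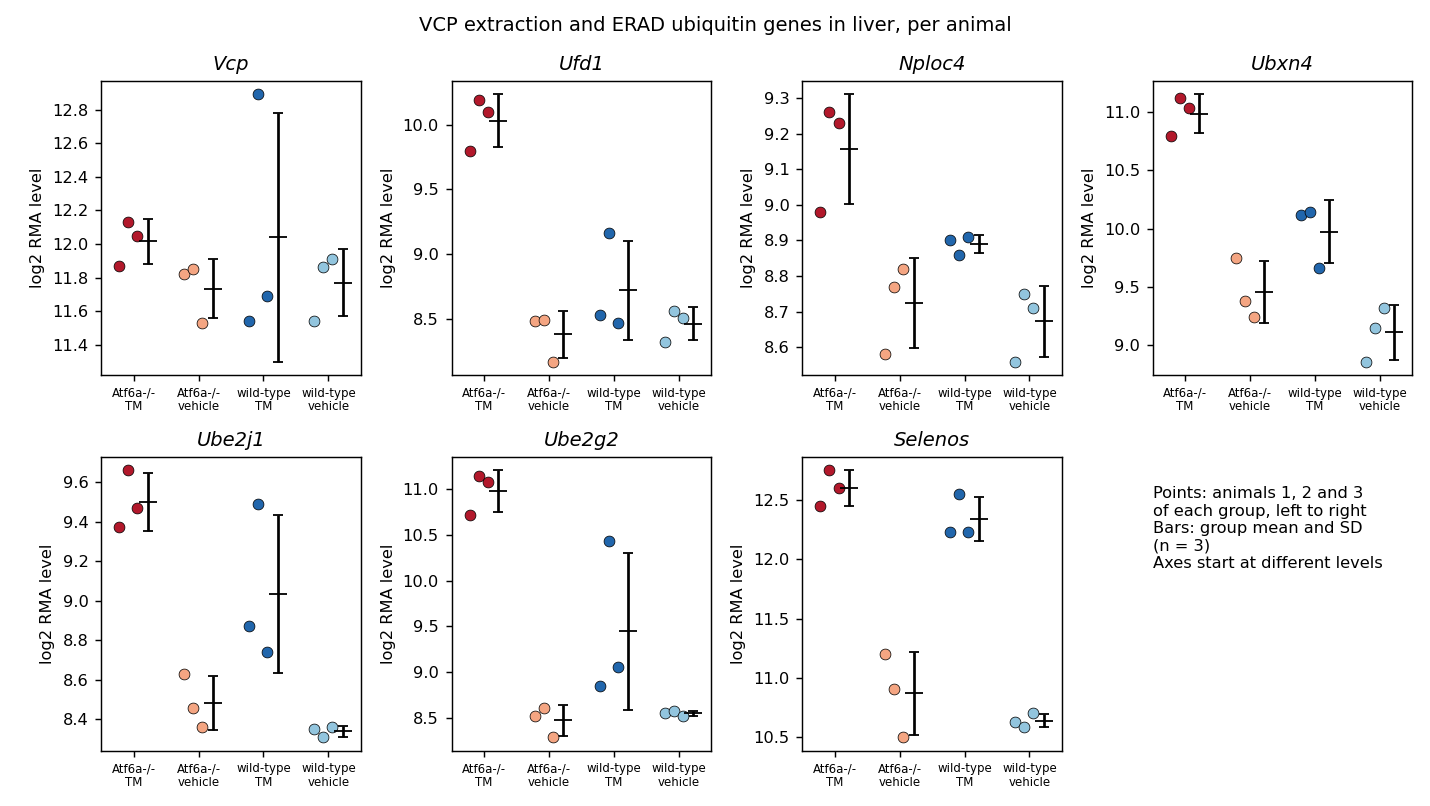
Log2 level of each gene in the 12 livers, by group (Atf6a-/- TM, Atf6a-/- vehicle, wild-type TM, wild-type vehicle from left to right). Points are animals 1, 2 and 3 and bars are the mean and SD of 3 animals, with an axis of its own for each gene. For Ufd1, Nploc4, Ubxn4 and Ube2g2 the 3 Atf6a-/- TM livers lie above the other 9, and wild-type TM animal 2 lies above animals 1 and 3 in 6 of the 7 genes.

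Of the membrane proteins that hold VCP at the ER, both were higher after TM in both genotypes by their main probe sets. Between the genotypes after TM, Ubxn4 was called and Selenos was not, and neither had a called interaction. Ubxn4 had 10.80, 11.12 and 11.04 in Atf6a-/- TM livers, against 9.75, 9.38 and 9.24 in Atf6a-/- vehicle livers. It had 10.12, 10.14 and 9.66 in wild-type TM livers, against 8.86, 9.15 and 9.32 in wild-type vehicle livers. The groups stood in steps, with the Atf6a-/- TM livers highest, the wild-type TM livers next and the vehicle groups lower, though the lowest wild-type TM liver (9.66) lay below the highest Atf6a-/- vehicle liver (9.75). TM raised Ubxn4 2.89-fold in Atf6a-/- livers (1.53 ± 0.17, adjusted p = 2.97e-05) and 1.82-fold in wild-type livers (0.86 ± 0.17, adjusted p = 0.0107). After TM it was 2.02-fold higher in Atf6a-/- livers (1.02 ± 0.17, adjusted p = 0.00133). After vehicle the Atf6a-/- minus wild-type difference was 0.35 (-0.04 to 0.73), which was not called. Another Ubxn4 probe set, 1426484_at, had a TM difference of -0.06 in Atf6a-/- livers (adjusted p = 0.804).

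Selenos, the selenoprotein that links VCP to the derlins, had nearly equal responses in the 2 genotypes. Its levels were 12.45, 12.75 and 12.60 in Atf6a-/- TM livers and 11.20, 10.91 and 10.50 in Atf6a-/- vehicle livers. In wild-type livers they were 12.23, 12.55 and 12.23 after TM and 10.63, 10.59 and 10.70 after vehicle. All 6 TM livers lay at least a log2 unit above all 6 vehicle livers, and the TM groups of the genotypes overlapped. It was 3.33-fold higher after TM in Atf6a-/- livers (1.73 ± 0.16, adjusted p = 5.88e-06) and 3.24-fold higher in wild-type livers (1.70 ± 0.16, adjusted p = 9.46e-05). The difference between these responses was 0.04, with an interval of -0.46 to 0.54, and the Atf6a-/- minus wild-type difference after TM was 0.27 (-0.08 to 0.62, adjusted p = 0.341). With 3 animals a group, genotype differences of the sizes within those intervals are not excluded. The interval after TM reaches past 1.5-fold (0.58).

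Both E2 enzymes were higher after TM in Atf6a-/- livers. Ube2j1, the membrane-anchored E2, had 9.37, 9.66 and 9.47 in Atf6a-/- TM livers, against 8.63, 8.46 and 8.36 in Atf6a-/- vehicle livers. In wild-type livers it had 8.87, 9.49 and 8.74 after TM, against 8.35, 8.31 and 8.36 after vehicle. Every TM liver lay above the 6 vehicle livers, and wild-type TM animal 2 reached into the Atf6a-/- TM range. Ube2j1 was 2.03-fold higher after TM in Atf6a-/- livers (1.02 ± 0.17, adjusted p = 5.20e-04) and 1.62-fold higher in wild-type livers (0.69 ± 0.17, adjusted p = 0.0281). With the arrays scaled on Btf3 and Ppia the Atf6a-/- difference was 0.50, under 1.5-fold, and the wild-type difference 0.62 (adjusted p = 0.051). The wild-type call was lost without any 1 of the wild-type vehicle animals 1, 2 and 3 (differences of 0.70, 0.68 and 0.70, adjusted p = 0.0708, 0.0903 and 0.0795), and without wild-type TM animal 2 the difference was 0.47 (adjusted p = 0.0443), under 1.5-fold. Between the genotypes after TM the difference was 0.47 ± 0.17 (adjusted p = 0.0787), and 0.70 without wild-type TM animal 2 (adjusted p = 0.00113).

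Ube2g2, the soluble E2, had the largest difference of the 7 genes after TM in Atf6a-/- livers. Its levels there were 10.72, 11.14 and 11.08 after TM, against 8.52, 8.61 and 8.29 after vehicle. In wild-type livers it had 8.85, 10.43 and 9.06 after TM, against 8.55, 8.58 and 8.52 after vehicle. All TM livers exceeded all vehicle livers, and wild-type TM animal 2 lay between the other 2 wild-type TM livers and the Atf6a-/- TM livers. Ube2g2 was 5.69-fold higher after TM in Atf6a-/- livers (2.51 ± 0.31, adjusted p = 6.13e-05). In wild-type livers the difference was 0.90 ± 0.31 (0.21 to 1.58, adjusted p = 0.128), which was 0.40 without wild-type TM animal 2 (adjusted p = 0.16) and 1.19 without animal 1 (adjusted p = 0.0407, past the threshold). After TM it was 2.90-fold higher in Atf6a-/- livers (1.53 ± 0.31, adjusted p = 0.00408), and 2.03 on the log2 scale without wild-type TM animal 2.

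Whether the response itself differed between genotypes was tested as the interaction of genotype and treatment. Ufd1 and Ube2g2 were called, both with the larger response in Atf6a-/- livers, and 0 of the 7 went the other way, where 7.56% of all genes were called higher and 6.69% lower. The response of Ufd1 was larger by 1.39 ± 0.25 (0.84 to 1.95, adjusted p = 0.00442), a call that held in each of the 24 alternatives, with values from 0.95 to 1.61. That of Ube2g2 was larger by 1.61 ± 0.44 (0.65 to 2.58, adjusted p = 0.0376). The Ube2g2 call was lost in 10 of the 12 fits that each left out 1 animal, with differences of 1.32 to 1.68 and adjusted p of 0.0643 to 0.102, and it held without wild-type TM animal 2 (2.10, adjusted p = 3.30e-05) and without Atf6a-/- TM animal 1 (1.74, adjusted p = 0.0462). Ubxn4 had an interaction of 0.67 ± 0.25 (0.13 to 1.21) that missed the threshold (adjusted p = 0.121), as did Ube2j1 with 0.33 ± 0.24 (adjusted p = 0.511), Nploc4 with 0.21 ± 0.15 (adjusted p = 0.478) and Vcp with 0.01 ± 0.39 (-0.85 to 0.87). The Ubxn4 interaction was called in 3 of its 24 alternatives, with values from 0.23 to 0.86 over all of them. These 3 were a further quantile normalization (0.66, adjusted p = 0.0478), spike-in scaling (0.84, adjusted p = 0.0418) and array weights (0.86, adjusted p = 0.0278).

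Without stress the genotypes were not told apart by these genes. After vehicle, 0 of the 7 were called in either direction, where 0% of all genes were called higher in Atf6a-/- livers and 0.0055%, which is 1 gene, Atf6 itself, lower. The differences ran from -0.09 (Ufd1) to 0.35 (Ubxn4, interval -0.04 to 0.73), each with an adjusted p of 1, and the groups of the genotypes overlapped in all 7 genes by their main probe sets, where they did not overlap in 8.09% of all genes. The Ubxn4 probe set 1426484_at did not overlap, with 8.45, 8.40 and 8.11 in Atf6a-/- vehicle livers and 7.78, 7.85 and 7.88 in wild-type vehicle livers (0.48, adjusted p = 1).

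Relative to the mean of the vehicle livers of their own genotype, the single TM livers did not move evenly. Wild-type TM animal 2 had the highest level of its group in 6 of the 7 genes, Nploc4 being the exception. It stood above its vehicle mean by 1.12 for Vcp, by 0.70 for Ufd1 and by 1.88 for Ube2g2, where animals 1 and 3 stood at -0.23 and -0.08, at 0.07 and 0.01, and at 0.30 and 0.51. Among the Atf6a-/- TM livers, animal 2 was highest and animal 1 lowest in all 7 genes, within ranges of 0.26 to 0.42. Ddit3, which encodes the stress-induced factor CHOP, was 12.52, 13.04 and 12.94 in Atf6a-/- TM livers and 9.81, 12.87 and 10.89 in wild-type TM livers, so that wild-type TM animal 2 was high for it as well. The part of this animal's position on the first component and of its Ddit3 level in the values of the 7 genes was not tested.

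**Figure D3:**
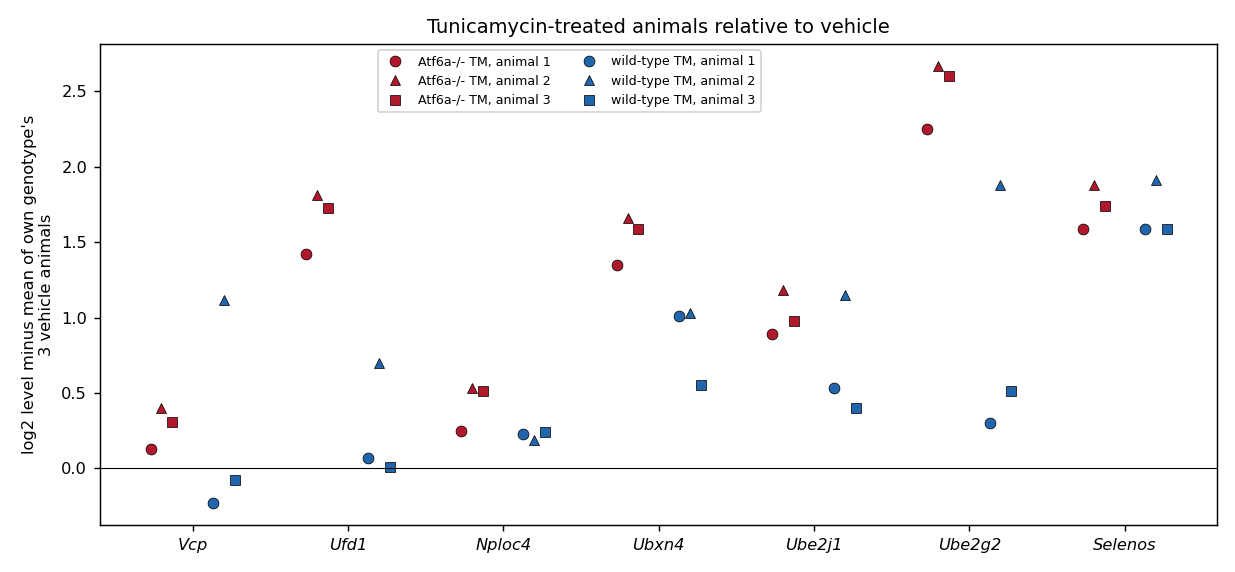
Log2 level of each TM liver minus the mean of the 3 vehicle livers of its genotype, for the 7 genes, with Atf6a-/- livers in red to the left of wild-type livers in blue and 1 symbol shape per animal number. Wild-type TM animal 2 (blue triangle) stands at 1.12 for Vcp and 1.88 for Ube2g2, apart from animals 1 and 3, while for Selenos all 6 livers lie close together.

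The genes with more than 1 probe set allowed a second measurement on the same RNA. Of the 15 probe sets, 12 were called higher after TM in Atf6a-/- livers and 6 in wild-type livers, where 11.9% and 2.62% of all 45037 probe sets were. Between the genotypes after TM 7 were called higher in Atf6a-/- livers (8.49% of all), and 3 had a called positive interaction (5.62% of all). The second Ufd1 probe set (1418087_at) had a difference of 0.93 in Atf6a-/- livers (adjusted p = 0.00151) and of -0.07 in wild-type livers, with an interaction of 1.01 (adjusted p = 0.0238). The second Ube2g2 probe set (1417033_at) had 2.65 in Atf6a-/- livers and 1.13 in wild-type livers (adjusted p = 6.77e-05 and 0.0711), and its interaction of 1.53 missed the threshold (adjusted p = 0.0641). The second Ube2j1 probe set (1448824_at) showed larger responses than the main one, 1.62 in Atf6a-/- livers and 1.03 in wild-type livers, and a called genotype difference after TM of 0.71 (adjusted p = 0.0305). The 3 Selenos probe sets lay between 1.73 and 2.04 in Atf6a-/- livers and between 1.70 and 1.96 in wild-type livers.

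Probe sets of Ubxn4 and Vcp did not give the same picture. For Ubxn4, 1426485_at had 1.71 in Atf6a-/- livers and 0.94 in wild-type livers (adjusted p = 2.91e-04 and 0.0533), near the main probe set. The remaining one, 1426484_at, had levels of 8.23, 8.49 and 8.06 in Atf6a-/- TM livers, against 8.45, 8.40 and 8.11 in Atf6a-/- vehicle livers, a difference of -0.06 (-0.34 to 0.22, adjusted p = 0.804). In wild-type livers it had 8.50, 8.31 and 8.25 after TM, against 7.78, 7.85 and 7.88 after vehicle, a difference of 0.52 (adjusted p = 0.0315, under 1.5-fold). Its interaction was -0.57 (adjusted p = 0.0673), opposite in sign to the 0.67 of the main probe set. For Vcp, the probe set 1457588_at was called in Atf6a-/- livers at 0.87 ± 0.25 (adjusted p = 0.0196), but its levels of 6.09, 4.94 and 5.46 after TM, against 4.65, 4.61 and 4.61 after vehicle, lie near the array medians of 4.64 to 4.71. Which transcripts these probe sets match was not tested.

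**Figure D4:**
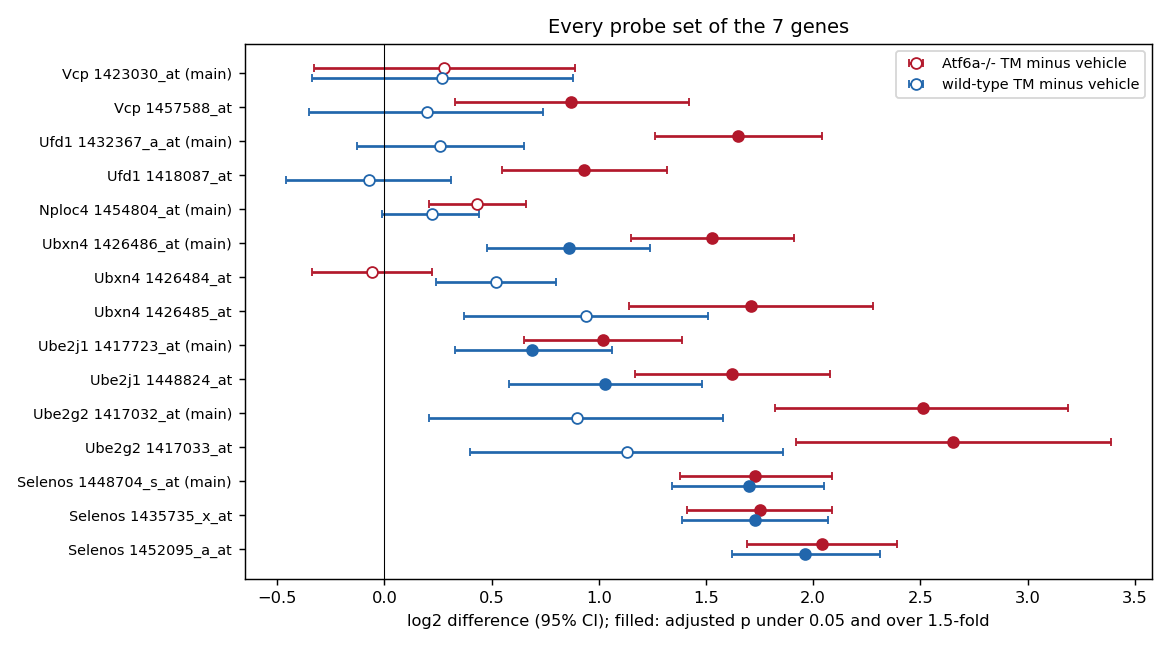
Log2 difference after TM, with 95% confidence intervals, for each of the 15 probe sets of the 7 genes, in Atf6a-/- livers (red) and wild-type livers (blue). Filled points are called, and the main probe set of a gene is marked. The Selenos probe sets lie together in both genotypes, while 1426484_at of Ubxn4 is at -0.06 in Atf6a-/- livers, apart from 1.53 and 1.71 for the other Ubxn4 probe sets.

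Other genes of the pathway were counted in 5 groups. Over all genes, 15.2% were called higher and 12.8% lower after TM in Atf6a-/- livers, and 3.45% and 3.86% in wild-type livers. Among 13 other VCP cofactors and adaptors, 6 were called higher and 2 lower after TM in Atf6a-/- livers (median 0.59), and 3 higher and 0 lower in wild-type livers (median 0.13). Selenok, an ER selenoprotein that binds VCP, was higher by 1.63 in Atf6a-/- livers and by 1.38 in wild-type livers (adjusted p = 3.56e-05 and 9.83e-04). Ubxn1, a soluble cofactor that binds ubiquitin, was higher after TM in Atf6a-/- than in wild-type livers by 1.27 (adjusted p = 1.29e-05) and had an interaction of 1.28 (adjusted p = 4.13e-04). Svip, a small VCP-binding inhibitor of ERAD, fell by 1.71 in Atf6a-/- livers, where its level was 5.00 after TM and 6.71 after vehicle (adjusted p = 1.98e-05), with an interaction of -1.39 (adjusted p = 0.00503). Its Atf6a-/- TM levels of 4.99, 5.00 and 5.02 lie near the array medians of 4.64 to 4.71, as do the levels of the dim Vcp probe set. Aspscr1, another UBX-domain cofactor, fell by 0.75 in Atf6a-/- livers (adjusted p = 3.43e-04).

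Of 15 genes for shuttling, trimming and deglycosylation of extracted proteins, 4 were called higher and 1 lower in Atf6a-/- livers (median 0.18) and 2 higher and 0 lower in wild-type livers (median 0.02). The matching shares of all genes were 15.2% and 12.8% in Atf6a-/- livers and 3.45% and 3.86% in wild-type livers. Get4, a subunit of the BAG6 complex that escorts extracted proteins, rose by 2.45 in Atf6a-/- livers and by 0.96 in wild-type livers (adjusted p = 8.82e-08 and 8.43e-04), with an interaction of 1.49 (adjusted p = 3.51e-04). Ubqln2, a ubiquilin that shuttles substrates to the proteasome, fell by 0.79 in Atf6a-/- livers (adjusted p = 0.00395). Of 15 other ER membrane E3 ligases and ERAD E2 enzymes, 8 were called higher and 3 lower in Atf6a-/- livers (median 0.64) and 1 higher and 0 lower in wild-type livers (median 0.13). The gene called in wild-type livers was Syvn1, which encodes the E3 HRD1, at 2.76 in Atf6a-/- livers and 3.05 in wild-type livers (adjusted p = 8.72e-06 and 5.72e-05). Ube2j2, the paralog of Ube2j1, was higher after TM in Atf6a-/- than in wild-type livers by 1.28 (adjusted p = 4.90e-05), with an interaction of 1.31 (adjusted p = 0.00123).

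The 12 HRD1 partners, derlins and lectins had 8 genes called higher and 0 lower in each genotype, with a median of 0.74 in Atf6a-/- livers and 1.13 in wild-type livers. With cyclic loess the Atf6a-/- counts were 6 and 2. After TM, Edem2 was called higher in Atf6a-/- than in wild-type livers (0.95, adjusted p = 0.00187) and Derl3 and Herpud1 lower. By that comparison 11.3% of all genes were called higher and 8.45% lower. Derl3, a derlin of the retrotranslocation channel, was lower by that comparison with a difference of -1.72 (adjusted p = 0.00103) and an interaction of -1.85 (adjusted p = 0.0115), and Herpud1, an organizer of the HRD1 complex, with -1.38 and -1.22 (adjusted p = 0.00139 and 0.0391). Svip and Ubqln2 of the groups above also had called interactions of that sign (-1.39 and -1.31). Among the 7 genes of the extraction and ubiquitin machinery 0 had one. As 6.69% of all genes had one, 7 genes are too few for that count to set them apart. Of 14 other selenoproteins, 1 was called higher (Selenof, by 0.79) and 7 lower in Atf6a-/- livers and 0 higher and 3 lower in wild-type livers, with medians of -0.61 and -0.30. Dio1, the thyroid hormone deiodinase of liver, was lower after TM, with a difference of -5.29 in Atf6a-/- livers and of -3.54 in wild-type livers (adjusted p = 9.21e-07 and 2.18e-04).

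The balance of calls in these 5 groups moved with the scaling of the arrays, in recounts added after the data were seen. With the arrays scaled on Btf3 and Ppia, the reference genes of the study's PCR, the Atf6a-/- counts of higher and lower calls were 4 and 2 for the other VCP cofactors, 3 and 7 for shuttling and trimming, 5 and 4 for the other E3 and E2 enzymes, 5 and 2 for the HRD1 partners and 0 and 9 for the other selenoproteins. With scaling on spike-ins they were 9 and 1, 8 and 0, 9 and 0, 10 and 0, and 3 and 5 in the same order of groups. Of the genes named above, a call was lost for Selenof and Edem2 (0.28 and 0.52) under the scaling on Btf3 and Ppia, and for Aspscr1, Ubqln2 and the interaction of Herpud1 (-0.25, -0.30 and -1.05) under that on spike-ins. The calls of Rnf103, Marchf6 and Rnf139 in Atf6a-/- livers were also lost under the scaling on spike-ins. Among the 7 genes of the extraction and ubiquitin machinery, the calls of Ube2j1 in both genotypes and that of the Ube2g2 interaction were lost under the scaling on Btf3 and Ppia, and the other calls in Atf6a-/- livers and between genotypes after TM were made under both scalings. Without wild-type TM animal 2, the wild-type counts of higher and lower calls were 2 and 1, 1 and 0, 2 and 0, 8 and 0, and 0 and 3 for the 5 groups.

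**Figure D5:**
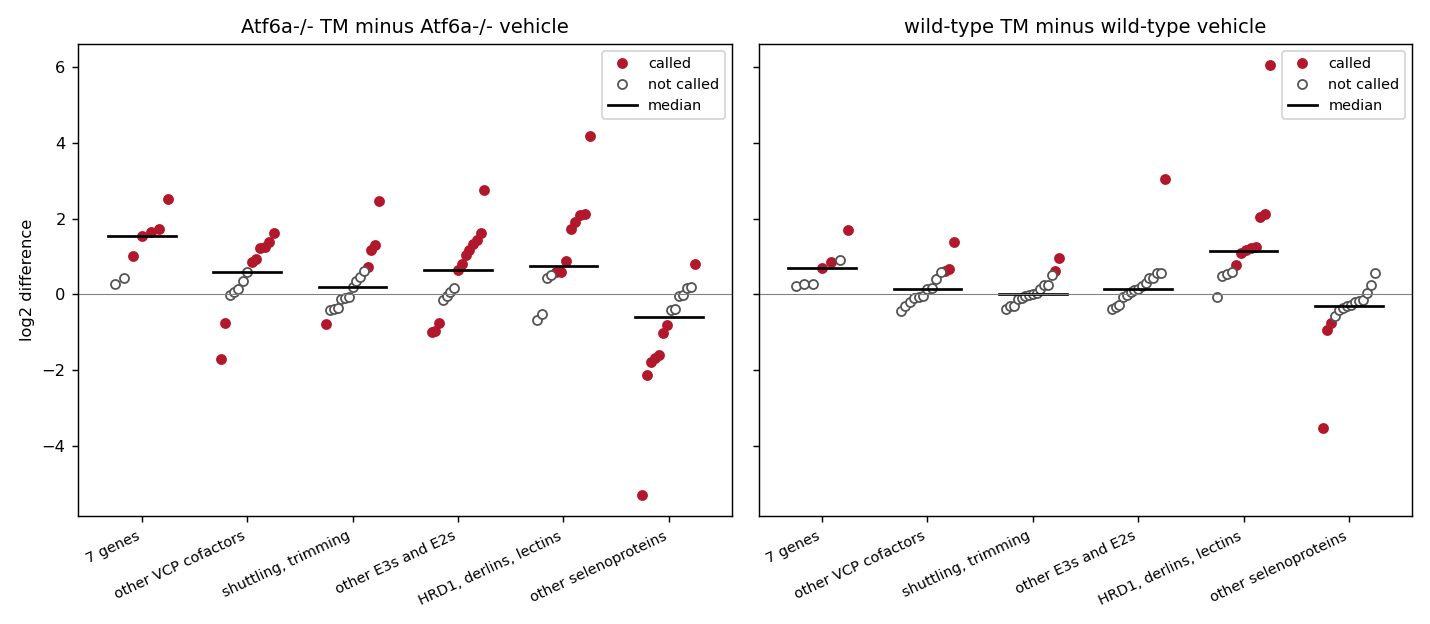
Log2 difference after TM of the 7 genes and of the measured genes of 5 related groups, in Atf6a-/- livers (left) and wild-type livers (right). Each point is a gene by its main probe set, red where called, and the line is the median, which for the 7 genes is 1.53 in Atf6a-/- livers and 0.69 in wild-type livers.

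The genes whose pattern over the 12 livers was nearest to each of the 7 were found among 9522 genes by the root mean square of the log2 differences, after each gene was centred on its wild-type vehicle mean. Ufd1 was nearest to Ywhag (0.10), Ranbp1 (0.12) and Rars (0.12), and Ube2g2 to Eif6 (0.11), Mybbp1a (0.14) and Lars (0.16). Selenos was nearest to Uso1 (0.15), Tfb1m (0.17) and Asph (0.19), and Ubxn4 to Srp68 (0.14), Tmem167b (0.14) and Stag1 (0.16). Ube2j1 was nearest to Rab3gap2 (0.09), Hook1 (0.12) and Sugt1 (0.14), Nploc4 to Vps26b (0.09), Tmem259 (0.10) and Arl16 (0.10), and Vcp to Socs6 (0.10), Nup50 (0.13) and Arhgap21 (0.17). Among the 7 genes themselves the nearest pair was Ufd1 and Ube2j1, at 0.33, and Vcp and Selenos were the farthest apart, at 1.15.

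Several markers of hepatocytes and of Kupffer cells and macrophages were called lower after TM on the values as deposited. Over all genes, 15.2% were called higher and 12.8% lower in Atf6a-/- livers, and 3.45% and 3.86% in wild-type livers. Of 8 measured hepatocyte markers, 6 were called lower after TM in Atf6a-/- livers and 2 in wild-type livers. Their summed signal on the linear scale was 56577 to 68747 in Atf6a-/- TM livers, 107515 to 128845 in Atf6a-/- vehicle livers, 83938 to 107852 in wild-type TM livers and 119268 to 128664 in wild-type vehicle livers, with 0 of the 8 below the array median in any group. Of 11 Kupffer cell and macrophage markers, 2 were called higher and 6 lower in Atf6a-/- livers and 1 higher and 4 lower in wild-type livers, with sums of 3761 to 4749 and 5353 to 7669 in Atf6a-/- livers after TM and vehicle, and of 3167 to 4118 and 5169 to 6431 in wild-type livers. Of 9 neutrophil markers, S100a8 and S100a9 were called higher in Atf6a-/- livers and S100a8 in wild-type livers, and 4 of the 9 lay below the array median in each group. Their sums were 733 to 2709 in Atf6a-/- TM livers, 299 to 328 in Atf6a-/- vehicle livers, 449 to 721 in wild-type TM livers and 318 to 358 in wild-type vehicle livers. The median log2 difference of the 9 after TM was 0.07 in Atf6a-/- livers and 0.13 in wild-type livers. Of 9 lymphocyte, 10 endothelial, 10 stellate and fibroblast, 5 cholangiocyte and 2 red cell markers, 0 were called higher in either genotype, and 1, 2, 2, 0 and 1 were called lower in Atf6a-/- livers and 0, 1, 0, 0 and 0 in wild-type livers. These counts moved with the scaling. Scaled on spike-ins, 1 lymphocyte, 3 endothelial, 2 stellate and fibroblast, 0 cholangiocyte and 1 red cell marker were called higher in Atf6a-/- livers, and scaled on Btf3 and Ppia 6, 7, 4, 3 and 1 were called lower. Scaled on spike-ins, the hepatocyte markers had 4 lower calls in Atf6a-/- livers and 1 higher and 1 lower call in wild-type livers, and scaled on Btf3 and Ppia the neutrophil markers had 2 higher and 2 lower calls in Atf6a-/- livers. The part of cell makeup in the values of the 7 genes was not tested.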

How the data were processed

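Total RNA from liver homogenate of 12 mice, in 4 groups of 3 taken from the titles, was hybridised to 1-colour Affymetrix arrays. Values were deposited on the log2 scale after RMA by the authors, a method that corrects background, equalizes the distributions of the arrays by quantiles and summarizes probes by median polish. Both affy and limma are named in the submitters' processing notes with no versions. It has 45101 features with values from 2.38 to 14.91, which were used as deposited, with no filter. After 64 AFFX controls were left out, 45037 probe sets were tested, of which 34945 have 1 symbol in the platform table, 932 have several and 9160 have none. A gene was represented by its probe set with the highest mean (18193 genes). Because arrays give no counts, the number of animals limits the precision.

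Group means were estimated for every probe set by lmFit, contrasts.fit and eBayes (limma 3.58.1, R 4.3.3), with 5 contrasts and two-sided Benjamini-Hochberg adjustment over all probe sets. The p-values rest on the spread between animals. The script was tested on simulated data. Tables and plots used matplotlib 3.10.9, numpy 2.4.6 and pandas 2.3.3 under Python 3.11.15. Named genes are the 7 members with all their probe sets, Atf6, Hspa5, Ddit3, Dnajb9 and, per list and contrast, up to 2 called genes with the largest rise and 2 with the largest fall, of which examples are given. Likeness used genes with a highest group mean of at least 6. Of 143 genes in 13 lists, 133 were measured. The genes described and all lists were chosen with earlier results of these data known. Alternatives changed the normalization, array scaling, filter, probe set of a gene, arrays in the fit, weights, variance prior, test, fold, animal block, Xist as a covariate and each animal left out.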

Additional observations from a re-analysis of the deposited data

Results flagged for a closer look

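The responses to TM of 2 of the 7 genes differed between the genotypes by the test of that difference. That of Ufd1 was larger in Atf6a-/- livers by 1.39 on the log2 scale (adjusted p = 0.00442 in limma), and that of Ube2g2 by 1.61 (adjusted p = 0.0376). In Ufd1 every Atf6a-/- TM liver stood further above its vehicle mean (1.42, 1.81 and 1.73) than every wild-type TM liver (0.07, 0.70 and 0.01), and in Ube2g2 likewise (2.25, 2.67 and 2.60, against 0.30, 1.88 and 0.51). The Ufd1 call held in each of its 24 alternatives and in its second probe set (1.01, adjusted p = 0.0238), while the Ube2g2 call was lost in 11 of 24 and was not made by its second probe set (1.53, adjusted p = 0.0641). No outlier test was run within these groups of 3, though each animal was left out in turn. Without wild-type TM animal 2 the Ube2g2 interaction was 2.10.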

How the results depend on the processing

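Each of the 35 values of the 7 genes (7 genes in 5 comparisons) was recomputed under its alternatives, 924 values in all: 850 kept their direction and side of the threshold, 25 lost a call, 12 gained one and 37 changed sign. On the values as deposited, the medians of all probe sets lay between -0.013 and 0.005. Scaling on the hybridisation spike-ins put them at 0.48 (Atf6a-/- response), 0.31 (wild-type response), 0.23 (genotypes after TM), 0.06 (after vehicle) and 0.17 (interaction). It gave 17334 called probe sets (14983 higher, 2351 lower) for the Atf6a-/- response, against 9480 (5345 and 4135), 4493 (3891 and 602) for the wild-type response, against 2353 (1179 and 1174), 8222 (6297 and 1925) for the genotypes after TM, against 6458 (3825 and 2633), and 4374 (2914 and 1460) for the interaction, against 4565 (2532 and 2033). There Vcp came to 0.20 between genotypes after TM and 0.03 after vehicle, and the called genes of the 7 were 7, 4, 4, 0 and 3 in that order of comparisons (Atf6a-/- response, wild-type response, after TM, after vehicle, interaction). Scaling on Btf3 and Ppia, the reference genes of the study's PCR, gave 20714 (2632 higher, 18082 lower), 2423 (974 and 1449), 11198 (1597 and 9601) and 5945 (793 and 5152) for the Atf6a-/- response, wild-type response, genotypes after TM and interaction, with 4, 2, 3 and 1 of the 7 genes called. The Atf6a-/- response was then -0.24 for Vcp and -0.08 for Nploc4, the genotype difference after TM -0.17 for Nploc4 and -0.16 for Selenos, and the interaction -0.43 for Vcp, -0.23 for Nploc4, -0.12 for Ube2j1 and -0.40 for Selenos. The Vcp difference after TM was 0.05 after a further quantile normalization, 0.20 with array weights, 0.26 with the mean of its probe sets and 0.03 with Xist as a covariate. Cyclic loess gave interactions of -0.05 for Vcp and -0.02 for Selenos. Testing the mean of all probe sets of a gene, over genes and not probe sets, gave 4316, 1099, 2989 and 2363 calls for the same 4 comparisons, and Ube2g2 0.07 after vehicle. By the methods' t-test at an unadjusted threshold, 5, 3 and 3 of the 7 genes passed in the Atf6a-/- response, wild-type response and genotypes after TM, and 38 probe sets after vehicle. After Benjamini-Hochberg adjustment of that test, 5, 0 and 0 of the 7 genes passed, with 6981, 1 and 1253 probe sets, and 0 after vehicle. The interaction was not computed for that test or for fits to only the arrays compared. Leaving out 1 animal at a time gave 0 to 4 called probe sets after vehicle and 1 to 2 of the 7 genes for the interaction. Over those fits Vcp ran from -0.15 to 0.52 (wild-type response), -0.28 to 0.40 (genotypes after TM), -0.15 to 0.07 (after vehicle) and -0.24 to 0.43 (interaction), the Selenos interaction from -0.14 to 0.21, and the difference after vehicle from -0.0047 to 0.12 for Nploc4, -0.15 to 0.02 for Ufd1 and -0.15 to 0.01 for Ube2g2. The cause of these changes was not tested.

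The labels do not say that animal numbers pair the livers. Deviations of same-numbered animals correlated at -0.18 to 0.37 over 18 pairs of arrays (median 0.09), with 8 over 0.1. Those of differently numbered animals correlated at -0.35 to 0.22 over 36 pairs (median -0.06), with 5 over 0.1, a smaller share. Animal 1 had the high Xist level in every group but wild-type TM, so that the number goes in part with Xist. With the number as a replicate block, 9590, 2504, 6628, 1 and 4803 probe sets were called (Atf6a-/- response, wild-type response, after TM, after vehicle, interaction), and 5, 3, 3, 0 and 2 of the 7 genes.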
